A study of Glycine max with 102 samples.

Results

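The 100 most abundant leaf transcripts of soybean were selected by their median FPKM over 102 libraries, out of 56044 genes. FPKM is a count of sequenced fragments scaled to transcript length and to the mapped fragments of the library, so levels can be compared between genes. Genes Glyma.07G014500 and Glyma.08G200100, which encode the vegetative storage proteins VspA and VspB, were set aside by the same rule, as were Glyma.13G046200 and the 4 LHY clock genes. Only 2 of these 7 would otherwise have been among the members, Glyma.13G046200 at rank 1 of all genes and VspA at rank 32. The medians that chose the members ran from 8394 FPKM for Glyma.05G128000 down to 784 FPKM for Glyma.11G098500. Around the limit the values were close, with 789 FPKM for Glyma.16G165800 in place 99 and 784 FPKM in place 100, then 781.1 FPKM for Glyma.15G052400 and 781.0 FPKM for Glyma.15G275600 just outside.

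Each library was made from leaves of 1 accession, 18 days old at stage V2, with no treatment stated. The soyNAM collection, the parents of a nested association mapping population, supplied 41 libraries, and 61 came from milestone cultivars. The soyNAM parents comprised 18 elite lines, 15 lines with LG names, and 8 plant introductions, called PI lines. This division, and the reading of the column Parent as the elite hub parent IA3023, rests on public family numbers that the labels do not give. Each accession had 1 library, so an SD below is the spread between accessions.

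The transcript pool of a young leaf is dominated by nuclear genes whose products work in the chloroplast. The best known are the small subunit of Rubisco, which fixes carbon dioxide, and the chlorophyll-binding proteins that gather light, and transcripts of many such genes follow light and the time of day. Soybean is an ancient polyploid and usually carries such genes as several similar copies, which can share reads. The table identifies genes by ID alone, and 0 of its 56044 IDs were found in the reference table of names. No member can therefore be assigned to one of these functions here, no member's sequence is shown, and the labelled tissue could not be checked against named markers.

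Libraries Parent, NAM10, NAM31, NAM11, NAM06 and 60 stand apart in their levels of these transcripts, and results that rest on them are given with and without them. Summed FPKM over all genes was between 459817 and 601047 in these 6 libraries. It was between 545567 and 864712 in the other 96, with a median of 708722. Sequencing depth is unknown, because FPKM keeps no counts, so no counting interval is given. The labels record no batch or date, so a batch that coincided with 1 of the collections cannot be told apart from it.

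The 100 transcripts held 25.04% of the summed FPKM in the median library. Much of this came from few genes. Place 1 alone held 1.22% of the total in the median library, the first 10 places 7.06%, the first 20 places 10.8% and the first 50 places 17.7%. Elite lines had a share of 23.5% ± 6.35 (SD, n = 18), LG lines 26.01% ± 3.48 (n = 15), PI lines 25.1% ± 2.199 (n = 8) and milestone cultivars 24.01% ± 2.71 (n = 61). The lowest, median and highest shares were 9.14%, 25.7% and 29.7% in elite lines. They were 14.6%, 26.9% and 28.6% in LG lines, 20.5%, 25.9% and 27.2% in PI lines, and 14.8%, 24.4% and 28.03% in milestone cultivars. The classes overlapped over most of their range. With the 6 libraries left out, the elite share was 26.6% ± 1.59 (n = 14), the LG share 26.8% ± 1.53 (n = 14) and the milestone share 24.2% ± 2.46 (n = 60). The share is a score over members that were selected on the same values, so it was not tested. In whole leaves, fewer cells of a type and less RNA per cell cannot be told apart.

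**Figure D1:**
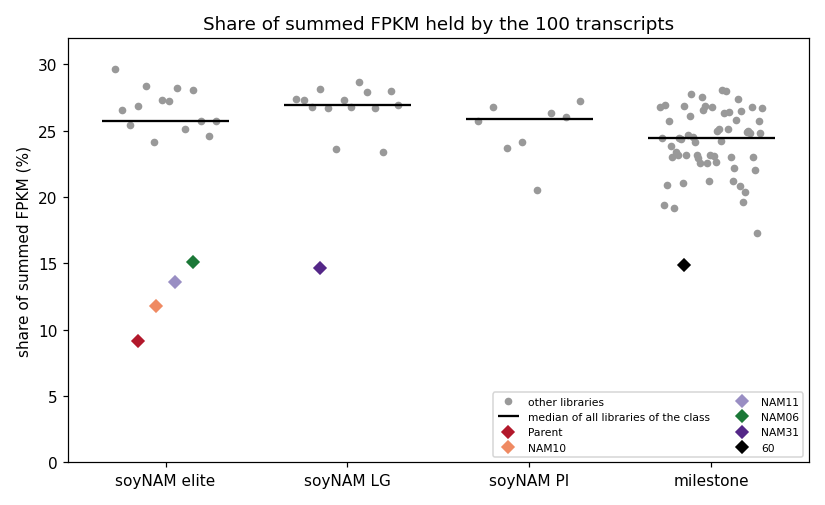
Share of summed FPKM (%, vertical axis) held by the 100 transcripts in each library, by class. Grey points are single libraries, diamonds the 6 libraries that stand apart and bars the class medians. The 6 diamonds lie between 9.14% and 15.1%, below every grey point, the lowest of which is at 17.3%.

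The shares of the 6 libraries were 9.14% in Parent, 11.8% in NAM10, 13.6% in NAM11, 14.6% in NAM31, 14.8% in library 60 and 15.1% in NAM06. The next lowest share was 17.3%, in milestone library 57. Members also made up fewer of each library's own 100 highest genes, counted with the 7 set-aside genes left out. Outside the 6 libraries between 76 and 96 members were among them, with a median of 90, and 44 members were among them in every one of the 96 libraries. In Parent the number was 46 and in NAM10 57. It was 68 in NAM06, 69 in NAM11, and 70 in both NAM31 and library 60. A library's own 100 highest genes held more than the members did, at 17.1% of summed FPKM in Parent and 17.6% in NAM10. They held 18.0% in NAM11 and NAM31, 17.6% in library 60 and 18.9% in NAM06, and 19.4% in library 57.

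No member had a value of exactly 0 in any library. Of the 10200 values 1 lay under 1 FPKM, 3 under 10 FPKM and 27 under 100 FPKM, and 22 of those 27 were in the 6 libraries. By comparison 94.2% of the 30101 genes tested, those whose mean reached 1 FPKM, were above 0 in every library. The single value under 1 FPKM belonged to Glyma.03G159100, listed at 0.0794 FPKM in the LG library NAM33. The next lowest value of that gene was 349 FPKM in library 60, and its median was 1002 FPKM. Glyma.02G309500 had 1 such isolated value too, at 2.78 FPKM in milestone library 19, where its next lowest value was 253 FPKM in Parent and its median 927 FPKM. This gene was singled out after its values were seen. In both genes only 1 library lay under 100 FPKM. Among the set-aside genes there was 1 exact 0, for Glyma.13G046200 in milestone library 47, although its next lowest value was 3087 FPKM and its median 18655 FPKM. A value listed at 0 in such a gene can be a failed estimate.

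Outside the 6 libraries the members were even, with a median SD of 0.35 over their log2(FPKM + 1) values. With all libraries the median SD was 0.51. Glyma.13G302900 was the least variable member, at 425 to 1219 FPKM with an SD of 0.32, and Glyma.02G282500 (364 to 1284 FPKM, SD 0.33) and Glyma.11G061300 (436 to 1645 FPKM, SD 0.35) followed. The largest SDs belonged to Glyma.03G159100 at 1.17, through the 1 value in NAM33, to Glyma.10G243800 at 1.12 and to Glyma.15G026500 at 1.08. The range of Glyma.10G243800 was 9.43 to 2827 FPKM and that of Glyma.15G026500 was 91.0 to 2206 FPKM. The median member's highest value was 7.66 times its lowest.

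Member IDs named each of the 20 chromosomes. Chromosome 16 had 9 members among its 1067 genes tested (0.843%) and chromosome 4 had 9 of 1435 (0.627%). Chromosomes 17 and 20 had 1 member each, of 1468 and 1270 genes. Only 1 pair of members, Glyma.16G165200 and Glyma.16G165800, lay within 10 steps of each other in the order of the IDs, at 6 steps apart. These 2 neighbours held places 98 and 99.

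The gene that stood highest was not the same in every library. Glyma.05G128000 was the highest member in 40 of 41 soyNAM libraries, the exception being Parent, where Glyma.08G173700 stood highest at 1730 FPKM. Among milestone cultivars Glyma.05G128000 was highest in 18 of 61 libraries and Glyma.11G221000 in 41. Glyma.18G036400 in library 25 and Glyma.19G007700 in library 47 were the other cases. The ratio of Glyma.05G128000 to Glyma.11G221000 within a library does not depend on scaling between libraries. It was 1.23 at the lowest, 1.53 at the median and 41.1 at the highest in soyNAM parents, and 0.327, 0.879 and 2.97 in milestone cultivars. The groups overlapped, and every soyNAM library was above 1. Outside the 6 libraries the highest soyNAM ratio was 3.12, in NAM48, and the medians were 1.49 and 0.882. This pair was picked after the values were seen, so the ratio was not tested.

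**Figure D2:**
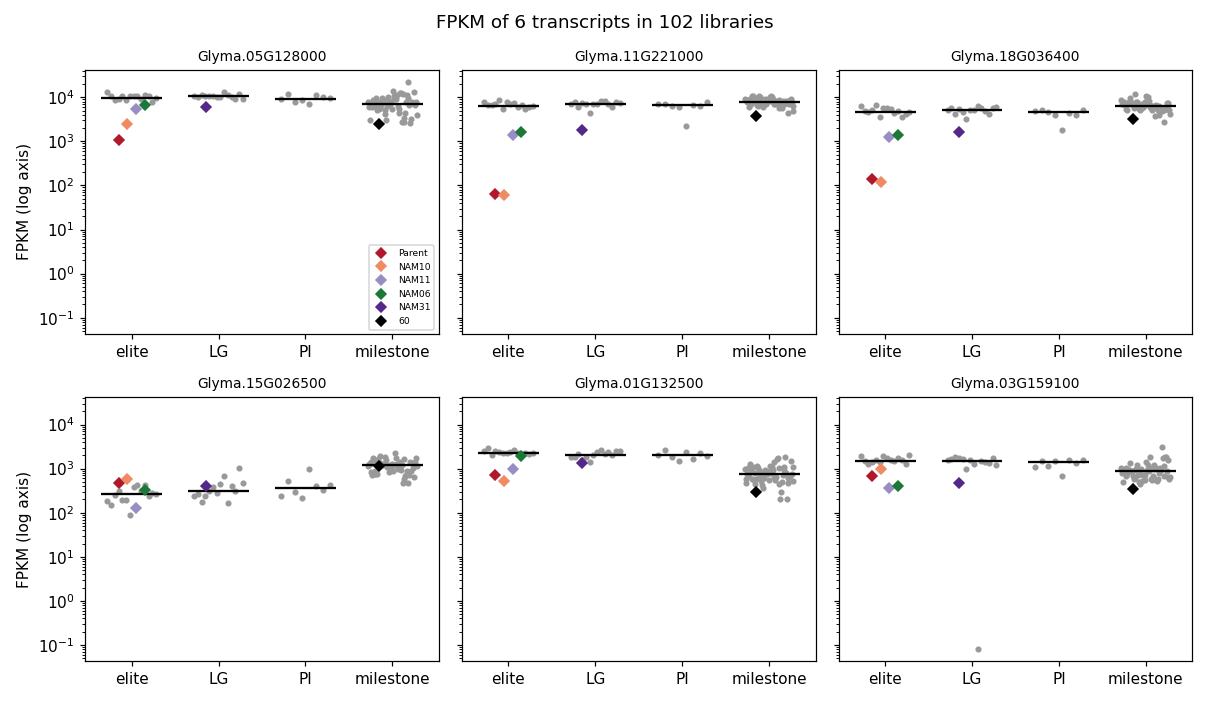
FPKM (log axis) of 6 transcripts in each library, by class. Grey points are single libraries, diamonds the 6 libraries that stand apart and bars the class medians. Glyma.11G221000 lies at 64.8 FPKM in Parent and 60.5 FPKM in NAM10, Glyma.15G026500 is lower in most soyNAM libraries than in milestone libraries, and Glyma.03G159100 has its single low value of 0.0794 FPKM in an LG library.

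The 6 libraries were compared with the other libraries of their collection, 36 for the soyNAM libraries and 60 for library 60. A member was counted as low in a library where its FPKM was under 50% of its median over those others. In Parent 94 of the 100 members were low, against 19.7% of all 30101 genes. In NAM10 78 were low (16.8% of all genes), in NAM31 82 (17.4%), in NAM11 91 (16.9%), in NAM06 75 (13.6%) and in library 60 64 (8.38%). With FPKM scaled to a common sum, 73 members were low in Parent, 54 in NAM10, 52 in NAM11, 32 in NAM31, 38 in NAM06 and 20 in library 60. The share of all genes at that scaling is not given here, so these counts have no background beside them. The median member stood at 22.9% of its reference in Parent, 34.4% in NAM10, 34.8% in NAM11, 41.9% in NAM31, 43.9% in NAM06 and 46.6% in library 60. Over all genes tested the median was between 97.4% and 101.2% in the 6 libraries. Size factors from the median ratio of genes to their geometric mean over all libraries were between 0.974 and 1.04 in the 6. The deposited FPKM may in addition have been scaled to equal such ratios, which was not tested. A median near 100% therefore does not show that the typical gene was unchanged. Each is a single library named with results of these data known, so no test was made.

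The same libraries were low in the next 900 genes by median FPKM, to a smaller extent. There 61.0% of genes were low in Parent, 52.9% in NAM10, 52.4% in NAM11, 49.4% in NAM31, 35.9% in NAM06 and 24.9% in library 60. In the 96 other libraries few members were low. The median library had 0 low members, and 27 of the 36 soyNAM and 33 of the 60 milestone libraries had none. The highest numbers there were 28 in the PI library NAM48 and 23 in the milestone library 57. The share of all genes low in each of these 96 libraries is not given here, so these counts have no background beside them.

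Every member was low in at least 1 of the 6 libraries. There were 36 members low in all 6 and 35 in 5 of them, while 14 were low in 4, 9 in 3, 4 in 2 and 2 in 1. All 5 soyNAM libraries were low together for 57 members, and 21 of those 57 were not low in library 60. The lowest of a member's 102 values lay in 1 of the 6 libraries for 91 members, in Parent for 58, in NAM11 for 16, in library 60 for 12, in NAM10 for 4, in NAM31 for 1 and in NAM06 for 0. Shares of all genes are not given here for these patterns or for the lowest value. Whether the counts are particular to the members was therefore not tested.

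**Figure D3:**
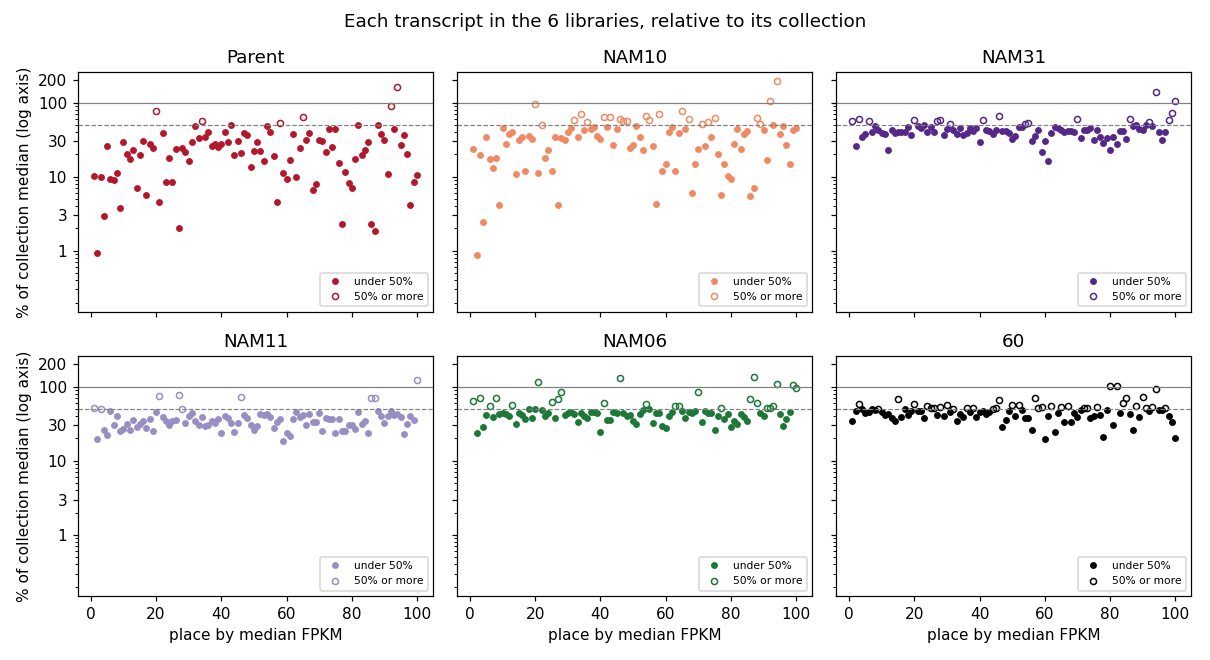
FPKM of each of the 100 transcripts as a percentage of its median over the other libraries of the collection (vertical log axis), against its place by median FPKM, with a panel for each of 6 libraries. Filled points lie under 50% (dashed line), open points at or above it. Parent has 94 filled points and library 60 has 64, and values under 10% occur in Parent and NAM10.

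Parent and NAM10 differed from the other 4 in how low single members reached. In Parent 55 members lay under 25% of their reference and in NAM10 34, against 4 in NAM31, 11 in NAM11, 2 in NAM06 and 4 in library 60. Shares of all genes under 25% or 10% are not given here, so whether this contrast is particular to the members was not tested. Values under 10% were found for 24 members in Parent and 10 in NAM10. The 10 in NAM10 were also under 10% in Parent, and 0 members lay under 10% in any of the other 4 libraries. Parent was lower than NAM10 for 94 of 100 members, and the share of all genes with that order is not given here.

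Glyma.11G221000, in place 2, was among the members that stood lowest in the 6 libraries as a group. It was at 64.8 FPKM in Parent and 60.5 FPKM in NAM10, then at 1814 FPKM in NAM31, 1385 FPKM in NAM11, 1640 FPKM in NAM06 and 3765 FPKM in library 60. Its other soyNAM values had a minimum of 2269 and a median of 6933 FPKM, and the other milestone values a minimum of 4428 and a median of 7993 FPKM, so none of the 6 overlapped the rest of its collection. Within the library this gene ranked 947th of all genes in Parent and 1236th in NAM10, and 3rd in library 60. Relative to its reference it stood at 0.935% in Parent and 0.873% in NAM10, and between 19.98% and 47.1% elsewhere.

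Glyma.18G036400, in place 4, followed the same order, at 142 FPKM in Parent, 119 FPKM in NAM10, 1651 FPKM in NAM31, 1250 FPKM in NAM11, 1372 FPKM in NAM06 and 3201 FPKM in library 60. Its soyNAM reference was 4834 FPKM and its milestone reference 6458 FPKM. The soyNAM libraries outside the 6 went down to 1819 FPKM and the milestone libraries to 2773 FPKM, so library 60 lay within the range of its collection. Glyma.12G037400, in place 9, had 116 FPKM in Parent, 127 FPKM in NAM10, 1311 FPKM in NAM31, 791 FPKM in NAM11, 1337 FPKM in NAM06 and 1453 FPKM in library 60. Its references were 3086 FPKM in soyNAM and 2860 FPKM in milestone libraries.

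The first 10 places as a group were at a median of 9.58% of reference in Parent and 17.4% in NAM10, lower than places 51 to 100 at 22.6% and 37.4%. In the other libraries the first 10 places and places 51 to 100 were closer, at 41.1% and 41.96% in NAM31, 28.4% and 36.7% in NAM11, 43.7% and 44.2% in NAM06, and 48.1% and 47.2% in library 60. In Parent 6 of the first 10 members were under 10%. Glyma.05G128000 stood at 1052 FPKM in Parent, 2486 FPKM in NAM10, 5896 FPKM in NAM31, 5357 FPKM in NAM11, 6603 FPKM in NAM06 and 2465 FPKM in library 60. It was low only in Parent, NAM10 and library 60, at 10.1%, 23.9% and 34.4%.

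Other members of the first 10 also separated Parent and NAM10 from the rest. Glyma.08G082900 in place 3 stood at 9.77% and 19.6% of its reference there, and between 50.3% and 70.7% in the other 4 libraries. Glyma.14G008000 in place 6 was at 9.40% and 17.1%, and between 45.1% and 56.8% in the others. Glyma.19G106800 in place 7 was at 9.15% and 13.02% there and between 30.3% and 49.96% in the others, and Glyma.08G126800 in place 8 at 11.1% and 17.7% and between 40.5% and 71.5%. Places 5 and 10 did not show this gap. Glyma.19G007700 in place 5 lay between 22.3% in NAM11 and 44.5% in library 60, and Glyma.05G007100 in place 10 between 26.5% in NAM11 and 46.004% in library 60.

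Apart from Glyma.11G221000, the members lowest by the median over the 6 libraries were Glyma.03G185900, Glyma.18G057900, Glyma.18G065900 and Glyma.13G160400. Glyma.03G185900 had 176 FPKM in Parent, 189 FPKM in NAM10, 341 FPKM in NAM31, 293 FPKM in NAM11, 461 FPKM in NAM06 and 523 FPKM in library 60, with references of 1561 and 978 FPKM. Glyma.13G160400 was between 7.11% and 30.1% of its reference in the 5 soyNAM libraries and at 101.2% in library 60, with 914 FPKM there. Glyma.18G057900 went the other way in library 60, where its 19.7% was the lowest of all members and its 221 FPKM lay below the other 60 libraries, which began at 369 FPKM. Glyma.18G065900 stood at 20.98% in library 60 and between 11.7% and 36.7% in the soyNAM libraries.

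Some members departed from the common pattern. Glyma.15G026500 was above its soyNAM reference of 298 FPKM in Parent at 480 FPKM, in NAM10 at 585 FPKM, in NAM31 at 410 FPKM and in NAM06 at 320 FPKM. It was low in NAM11 at 126 FPKM, and stood at 1138 FPKM in library 60 against a reference of 1209 FPKM. Glyma.11G098500 was at 106% of its reference in NAM31, 123% in NAM11 and 95.8% in NAM06, but at 10.502% in Parent and 20.1% in library 60. Glyma.15G238600 was low in Parent alone, at 21.1%, and reached 130% in NAM06. Glyma.02G282500 was close to its reference in Parent and NAM10, at 88.9% and 104.8%, and stood between 46.4% and 55.4% in the other 4 libraries.

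Patterns that split the soyNAM libraries were few. The 6 members low in Parent and NAM10 and in none of NAM31, NAM11 and NAM06 were Glyma.05G128000, Glyma.08G082900, Glyma.14G115500, Glyma.04G249700, Glyma.17G212200 and Glyma.11G098500. The 3 with the reverse pattern were Glyma.18G241700, Glyma.11G061300 and Glyma.02G047600. These 9 genes were listed by their pattern after the values were seen, and the share of all genes with either pattern is not given here.

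The members' deficit was only part of the lower summed FPKM of these libraries. In Parent the members summed to 42009 FPKM against a soyNAM reference of 194047 FPKM, a gap of 152037 FPKM, where the gap over all genes was 261861 FPKM. In NAM10 the gaps were 132850 FPKM for members and 201893 FPKM for all genes. They were 111484 and 157061 FPKM in NAM31, 124619 and 210111 FPKM in NAM11, 103404 and 120631 FPKM in NAM06, and 90083 and 156249 FPKM in library 60. Genes beyond place 10000 by median summed to more than their reference in all 6, at 120437 FPKM in Parent and 151981 FPKM in NAM31 against 86555 FPKM, and at 100521 FPKM in library 60 against 90455 FPKM.

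**Figure D4:**
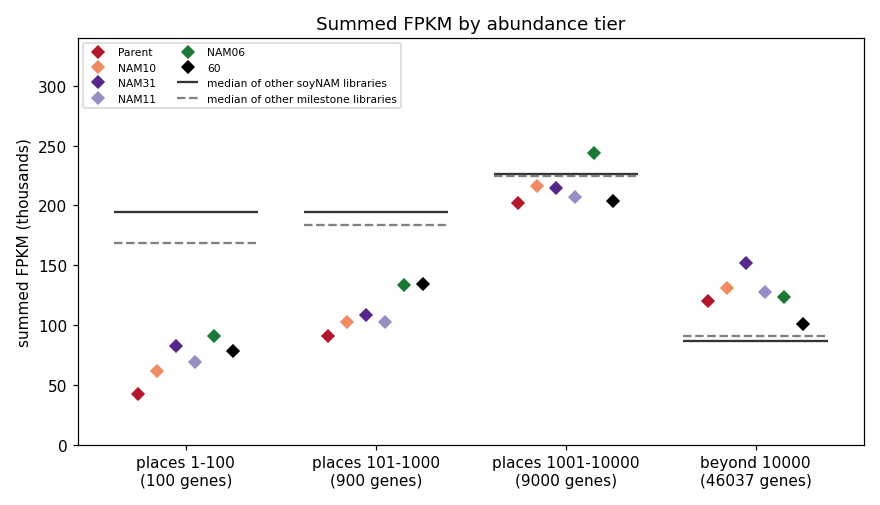
Summed FPKM (in units of 1000, vertical axis) in 4 tiers of genes by median FPKM, for the 6 libraries (diamonds) and for the median of the other soyNAM (solid) and milestone libraries (dashed). The diamonds lie below both lines for the 100 members and for the next 900 genes, and above both lines beyond place 10000.

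The LHY clock genes, which encode MYB repressors that peak around dawn, were under 50% of their reference in the 5 soyNAM libraries and at 59.03% to 64.98% of it in library 60. Over the 4 genes, levels were between 0.196 and 2.58 FPKM in Parent and NAM10, between 32.9 and 126 FPKM in NAM31, NAM11 and NAM06, and between 69.2 and 247 FPKM in library 60. The medians of the 4 genes in the other libraries were between 99.6 and 391 FPKM in soyNAM and between 110 and 397 FPKM in milestone cultivars. Their part in the members' levels was not tested.

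In soyNAM parents against milestone cultivars 26 members were higher and 22 lower, while 37% of all 30101 genes tested were higher and 37.8% lower. Both counts lay below the shares in the whole table, a difference that was not tested. Levels were compared as log2(FPKM + 1) in limma, with p-values adjusted after Benjamini-Hochberg over every gene tested and a threshold of 0.05. All 100 members passed the filter of a mean of 1 FPKM, and the rule did not use this contrast. The median log2 fold change was 0.04 over the members and -0.00 over all genes. Called rises ran from 0.15 to 1.42 and called falls from -0.20 to -1.83, and a 2-fold change was reached by 1 rise and 4 falls. Without the 6 libraries 60 members were higher and 15 lower, against 37.9% and 39.4% of all genes. Leaving out these 6, of which 5 are soyNAM libraries low in these transcripts, raises the soyNAM side by construction. After quantile normalization with all libraries 28 were higher and 38 lower, against 41.1% and 34.5% of all genes.

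Glyma.01G132500 had the largest rise. Its lowest, median and highest values were 534, 2143 and 2909 FPKM in soyNAM parents and 205, 756 and 1852 FPKM in milestone cultivars. The groups overlapped, with 12 of 41 soyNAM values below the highest milestone value and 0 milestone values above the soyNAM median, and the log2 fold change was 1.42 (95% interval 1.18 to 1.66, limma adjusted p = 1.03e-19). Glyma.06G020400 rose by 0.92, from 485, 1249 and 1970 FPKM in milestone cultivars to 774, 2525 and 3819 FPKM in soyNAM parents (95% interval 0.72 to 1.12, limma adjusted p = 3.87e-14). Neither gene has a name or function in the sources used here.

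Glyma.15G026500 had the largest fall. It stood at 91.0, 309.5 and 1061 FPKM in soyNAM parents (lowest, median and highest) and at 461, 1206 and 2206 FPKM in milestone cultivars, with a log2 fold change of -1.83 (95% interval -2.07 to -1.60, limma adjusted p = 1.88e-27). Glyma.10G243800 fell from 335, 1267 and 2827 FPKM in milestone cultivars to 9.43, 494 and 937 FPKM in soyNAM parents. Its log2 fold change was -1.51 (95% interval -1.85 to -1.18, limma adjusted p = 5.87e-14), and -1.29 without the 6 libraries. The median soyNAM value of each gene lay under the milestone range or near its lower end.

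Among the 10 highest members 2 were higher in soyNAM parents and 5 lower. Glyma.05G128000 averaged 9471 ± 2440 FPKM (SD, n = 41) against 7474 ± 3427 FPKM (n = 61), a log2 fold change of 0.39, and Glyma.14G008000 averaged 4662 ± 1267 against 3627 ± 1149 FPKM, 0.33. Glyma.11G221000 was lower at 6047 ± 2224 against 7935 ± 1507 FPKM (-0.71), and Glyma.18G036400 at 4372 ± 1608 against 6490 ± 1638 FPKM (-0.79). The limma adjusted p was 0.0053 for Glyma.05G128000, 0.0078 for Glyma.14G008000, 0.0011 for Glyma.11G221000 and 1.53e-05 for Glyma.18G036400. With no filter on low genes Glyma.05G128000 lost its call (adjusted p = 0.0558). These 4 kept their calls without the 6 libraries, and the falls shrank to -0.25 for Glyma.11G221000 and -0.42 for Glyma.18G036400.

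The other 3 falls among the 10 highest members were in Glyma.19G007700 (-0.26), Glyma.19G106800 (-0.35) and Glyma.08G126800 (-0.29). With no filter on low genes Glyma.19G007700 lost its call (limma adjusted p = 0.0512). None of the 3 passed without the 6 libraries, at -0.09, -0.11 and -0.11, and Glyma.08G082900 (0.25 then, 0.07 with all libraries) was called higher. Glyma.12G037400 and Glyma.05G007100 did not pass, with log2 fold changes of -0.26 (95% interval -0.55 to 0.04) and -0.19 (-0.37 to -0.01; limma adjusted p = 0.0576).

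Of the 48 members called with all libraries 41 kept their call and direction without the 6, among them all 26 that were higher. The 7 that lost it were all lower in soyNAM parents, and 34 others were called higher only without the 6. Leaving out the 6 shifts members up by construction, because 5 of the 6 libraries are soyNAM libraries low in these transcripts. The median log2 fold change of the members was then 0.22, against -0.01 over all genes. Leaving out Parent alone gave 38 higher and 21 lower members, against 37.2% and 37.7% of all genes.

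**Figure D5:**
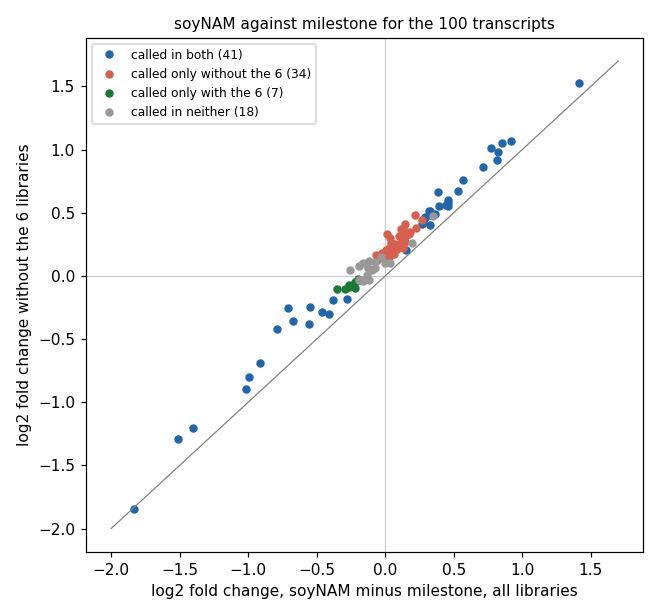
Log2 fold change of each of the 100 transcripts, soyNAM parents minus milestone cultivars, with all libraries (horizontal axis) and without the 6 libraries (vertical axis), on the log2(FPKM + 1) scale. Colours mark calls in limma and the diagonal marks equal values. Of the 100 points, 99 lie above the diagonal, and 34 are called only without the 6 libraries.

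Between LG and elite lines limma called 0 members, and 0.00997% of all genes were higher and 0.0166% lower. At an unadjusted p under 0.05 there were 31 members, against 8.11% of all genes. That number was 5 without Parent alone (6.2% of all genes) and 8 without NAM10 (5.82%). It was 16 without NAM11 (7.95%), 19 without NAM06 (8.09%) and 55 without NAM31 (13.8%). Without all 6 libraries it was 3, against 11.1% of all genes. A rank-sum test called 0 as well, with 7 members and 8.49% of all genes at an unadjusted p under 0.05. A fit of only these classes called 0, with 1 member and 5.81% of all genes at that level. The members' median log2 fold change was 0.26, against 0.00 over all genes, and it was -0.00 without the 6 libraries, of which 4 are elite and 1 is an LG library. Glyma.11G221000 showed the same shift, at 0.89 (95% interval 0.22 to 1.57) with all libraries and 0.03 without the 6.

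Between PI and elite lines 1 member was higher and 0 were lower in limma, while 2.14% of all genes were higher and 1.3% lower. At an unadjusted p under 0.05 there were 4 members, against 18.2% of all genes. The rank-sum test called 0 members, against 1.31% of all genes higher and 0.914% lower. The member called was Glyma.13G160400, with lowest, median and highest values of 766, 1429 and 1880 FPKM in PI lines and 76.3, 856.5 and 1348 FPKM in elite lines. The groups overlapped, with a log2 fold change of 0.999 (95% interval 0.45 to 1.54, limma adjusted p = 0.0246). It did not pass in limma without the 6 libraries, at 0.43 and an adjusted p of 0.0768, and over 14 alternatives that p ran from 0.0082 to 0.275.

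Without the 6 libraries the comparison of PI with elite lines turned, with 0 members higher and 6 lower. The median log2 fold change over the members was -0.21 in place of 0.16. Those 6 libraries include elite lines low in these transcripts and no PI line, so leaving them out shifts PI lines down by construction. Of all genes 6.28% were then higher and 6.06% lower, so the members' 6 of 100 lay near the background. The 6 were Glyma.04G055300, Glyma.08G204800, Glyma.13G357300, Glyma.14G003400, Glyma.15G174200 and Glyma.18G065900, listed because they were so few. The largest of these falls was in Glyma.18G065900, from 960, 1201 and 1592 FPKM in the remaining elite lines to 322, 902 and 1165 FPKM in PI lines. Its log2 fold change was -0.57 (95% interval -0.96 to -0.18, limma adjusted p = 0.0426), and with all libraries it was -0.04. The lowest PI value was that of NAM48, the library with 28 low members.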

How the data were processed

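The authors deposited FPKM per gene and library in a single file, whose gene IDs carry the suffix Wm82.a2.v1. Per the submitters' processing notes, Trimmomatic 0.32, STAR 2.4.1c and Cufflinks 2.2.1 were used. Genome sequence, filters and use of strand are not given in the sources used here, so overlapping, antisense and near-identical genes cannot be told apart. Libraries were grouped by column name: numbers 1 to 61 as milestone cultivars, and NAM with a family number, or Parent, as soyNAM parents. In all, 0 columns were left unused.

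Values were analysed as log2(FPKM + 1), which understates changes of low genes, for the 30101 genes whose mean reached 1 FPKM. Limma 3.58.1 in R 4.3.3 (with data.table, version 1.17.8) was used with a mean trend, 2-sided, and p-values were adjusted over all of them after Benjamini-Hochberg. soyNAM and milestone libraries were compared as 2 groups, and LG and PI with elite lines in a model of 4 classes. The fits were also run on simulated data with independent normal noise per gene. Those data held no outlying libraries, so they cannot show how the fits behave with the 6 libraries.

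The members, lists and the 6 libraries were chosen with earlier results of these data known. Genes named are the 10 highest medians, the 2 largest rises and falls per comparison, the 5 lowest and 3 highest over the 6 libraries, the 3 largest and smallest SDs and those at the limit. Others are said to be named after their values were seen. The IDs of the LHY genes are published assignments.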

Additional observations from a re-analysis of the deposited data

Results flagged for a closer look

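In the 8 PI lines, 26 quantities were checked for a library far from the others, the members' share and 25 named members. Chance flags about 1 in 20 groups, and the quantities share their libraries. The 8 that stood out did so through NAM48. It was lowest in Glyma.11G221000 at 2269 FPKM, where the next PI line was at 5924 FPKM and the highest at 7664 FPKM. It was also lowest in Glyma.18G036400 at 1819 FPKM (next 3999.9), in Glyma.19G007700 at 1972 FPKM (next 3735), in Glyma.19G106800 at 1522 FPKM (next 2996), in Glyma.08G126800 at 1560 FPKM (next 2810) and in Glyma.05G007100 at 1351 FPKM (next 2434). NAM48 was highest in Glyma.15G026500 at 989 FPKM, where the next was 514 FPKM, and in Glyma.11G098500 at 2182.4 FPKM, where the next was 1258 FPKM. The cause was not tested.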

How the results depend on the processing

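Without the 6 libraries 75 members were called between the collections, 60 of them higher, where an upward shift is built in by leaving them out. The rank-sum test called 51 higher and 20 lower, against 38.4% and 39.8% of all genes. Quantile normalization gave 28 higher and 38 lower, against 41.1% and 34.5%. Between PI and elite lines the 1 higher call became 0 higher and 6 lower without the 6 libraries, against 6.28% and 6.06% of all genes. The rank-sum test called 0 members, against 1.31% of all genes higher and 0.914% lower. A fit of only these classes also called 0, against 0.611% and 0.352%. The mean share of the 50 highest members was 16.3% in elite, 18.2% in LG, 17.4% in PI and 17.0% in milestone libraries. With 200 genes it was 31.1%, 34.01%, 33.2% and 31.7%. Under 25% of the reference lay 55 members in Parent, 34 in NAM10, 11 in NAM11, 4 in NAM31, 2 in NAM06 and 4 in library 60. With FPKM scaled to a common sum, 32 members were low in NAM31, 52 in NAM11, 38 in NAM06 and 20 in library 60, fewer by construction since these libraries had low sums. For neither of these settings is the share of all genes given here. The number of exact zeros was 0, and 1 value lay under 1 FPKM. For the members' counts and shares, 134 alternatives stayed within 1.5 times or 1 SD. Beyond these, 8 shares moved further, 15 counts were lower and 7 higher. The 134 include the counts of LG against elite lines, which were 0 in every setting and so add little. For named genes in comparisons where limma called them, 186 of 196 alternatives kept direction and call, 10 lost the call and 0 changed sign. Named genes without a call were not counted there. One of these, Glyma.12G037400, went from -0.26 to 0.05 between the collections without the 6 libraries. Of all members 15 differed in sign between those 2 fits. The runs that leave out 1 of the 6 libraries each were added after seeing the data. Apart from these cases, the cause of a shift was not tested. No paired analysis was possible because the labels give no replicate numbers. Depth is unknown, which limits the reading of low values.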

Other observations

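Milestone library 47, in which Glyma.13G046200 was listed at 0, had a summed FPKM of 678641, near the middle of its collection, and 20.9% of it in the members, where the milestone median was 24.4%. In that library Glyma.19G007700 reached 6898 FPKM and Glyma.05G007100 5259 FPKM, the highest of all 102 libraries for both genes. Milestone library 54 held the highest value of Glyma.05G128000, at 22612 FPKM, and of Glyma.08G082900, at 14778 FPKM, and also the lowest value of Glyma.11G098500, at 68.5 FPKM. Choosing by mean in place of median FPKM left 97 of the 100 members the same.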
